A study of Mus musculus with 12 samples.

Results

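Axon guidance ligands and their receptors were examined in adipose tissue: semaphorins, Slits, netrins and ephrins, and their plexin, neuropilin, Robo, Dcc, Unc5 and Eph receptors. Members were chosen by symbol alone, which took 75 of the 47729 gene rows (73 symbols, since Ntn5 has 3 identifiers). They were 36 ligand rows, 34 receptor rows and 5 rows that only carry a similar name: Unc50, a Golgi protein, Unc5cl, and the antisense RNAs Plxna4os1, Plxna4os2 and Plxna4os3. The study holds 12 bulk RNA-seq libraries, 3 each from interscapular brown (BAT), epididymal (EWAT), inguinal (IWAT) and retroperitoneal (RWAT) fat. The mice were wild-type C57BL/6J males, given a high-fat diet and aged 6 to 10 weeks per the series text. Every library is labelled as surgically denervated and none as innervated, so the effect of denervation was not tested and every comparison is between denervated depots. Whether the libraries of a depot, or the depots, stem from different animals is not stated in the labels. The p-values therefore reflect the spread among these libraries, which may be partly technical.

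Guidance cues were named for steering growing axons by attraction or repulsion. Semaphorins signal through plexins, and most secreted class 3 semaphorins need a neuropilin as co-receptor. Slits act on Robos, netrins on Dcc and Unc5 receptors, and membrane-bound ephrins on Eph receptor tyrosine kinases of the neighbouring cell. The same molecules act outside the nervous system on blood vessels, immune cells and fibroblasts, so a transcript in fat is not by itself a sign of nerve.

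The libraries held 12933516 to 21106554 assigned reads. Ucp1, the defining brown-fat gene, was at 1489, 0.253 and 1.70 normalised CPM (expected counts scaled to a common library size) in the libraries labelled BAT 1, 2 and 3, and at most 8.66 in the others, so the label of BAT 2 and BAT 3 was not borne out by this marker. Adipoq, an adipocyte hormone, was at only 34.8 CPM in EWAT 1 against 173 to 2323 in the other 11 libraries. Summed skeletal muscle markers reached 1157 CPM in RWAT 1 and 6746 in RWAT 3, and 21.5 to 416 elsewhere. Summed T, NK and B cell markers were at 146 CPM in BAT 1 and at 20.4 to 50.4 elsewhere. Th and Dbh, which make noradrenaline in sympathetic neurons, were at 0 in all libraries except for Th at 0.0571 CPM in EWAT 2. Other genes of the list of 20 sympathetic neuron markers were detected. The list summed to between 24.6 CPM (IWAT 3) and 69.3 CPM (EWAT 1), and 12 of its genes passed the count filter. In bulk tissue, fewer cells of a type and less RNA per cell cannot be told apart.

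Levels between genes were compared in TPM, a transcript abundance that is scaled by length. Receptors made up much of the upper end: Plxnb2, a receptor of class 4 semaphorins, averaged 77.4 ± 33.0 TPM (SD, n = 12 libraries) and ranged from 30.7 to 141. Nrp1, the co-receptor of Sema3a that also binds VEGF, averaged 63.4 ± 22.5 TPM. Plxna1, Plxnd1 and Nrp2 followed among the receptors at 39.6 ± 13, 35.3 ± 13.7 and 29.1 ± 14.4 TPM. The ranges over libraries of neighbours in this order overlapped.

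Among ligands, the secreted semaphorin Sema3c was highest at 59.8 ± 55.7 TPM (14.1 to 221), and the secreted Slit3 came next at 40.8 ± 24.1. The membrane semaphorins Sema4a and Sema4d, both known for roles in immune cells, averaged 28.6 ± 13.1 and 17.3 ± 9.75 TPM. Ntn4 and Ntn1, the netrins detected at more than a trace, averaged 8.10 ± 5.75 and 5.45 ± 5.05 TPM. Efnb1 led the ephrins at 13.4 ± 7.86 TPM and Ephb4, the venous partner of Efnb2, led the Eph receptors at 10.7 ± 5.23. Robo4, an endothelial Robo, was at 9.34 ± 6.08 TPM and Robo1 at 1.62 ± 0.79.

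The netrin receptors were uneven. Dcc had 0 counts in all 12 libraries, where 3 counts would correspond to 0.134 to 0.227 CPM; this floor covers counting error only. Unc5d had 2 counts over all libraries, Unc5c averaged 0.231 ± 0.194 TPM, and the repulsive receptors Unc5b and Unc5a averaged 5.12 ± 5.56 and 3.63 ± 1.59 TPM. In all, 14 of the 75 rows did not pass the filter on low counts and were not tested: Dcc, Unc5d, Robo2, Robo3, Epha6, Epha8, Epha10, Efna3, Efnb3, Unc5cl, Plxna4os3 and the 3 Ntn5 rows. The highest of them, Robo2, a neuronal Slit receptor, totalled 85 counts. The remaining 61 comprised 31 ligands, 27 receptors and 3 rows matched by name only.

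**Figure D1:**
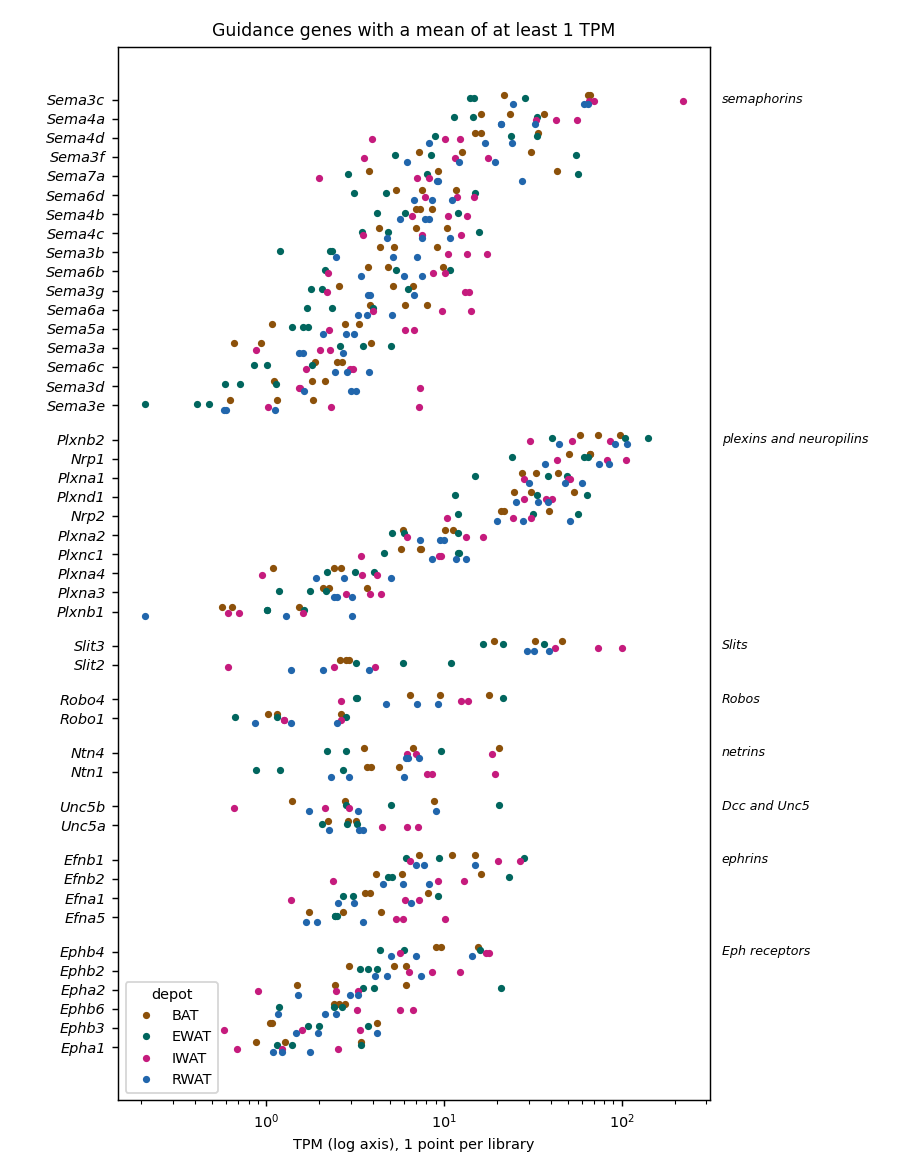
TPM (log axis) of the 45 guidance genes with a mean of at least 1 TPM, 1 point per library, coloured by depot and grouped by family. Plxnb2, Nrp1 and Sema3c reach the highest values, and Sema3c spans 14.1 to 221 TPM with its highest point in IWAT.

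Depots were compared in CPM scaled by library size and TMM factors, because a small RNA, Rn7s1, took 4.2% to 23.5% of the TPM of a library. IWAT against EWAT was the comparison in which members passed the threshold (edgeR quasi-likelihood test, Benjamini-Hochberg adjusted p below 0.05). There, 13 of 61 members were called (21.3%) against 11.0% of all 18942 genes tested. Of these, 8 were higher in IWAT (13.1%, against 5.47% of all genes) and 5 lower (8.20%, against 5.52%). The ligands gave 7 higher and 2 lower of 31, the receptors 1 higher and 2 lower of 27, and Plxna4os1 was lower. The difference between ligands and receptors was not tested. The median log2 fold change was -0.03 over the members and 0.02 over all genes. Groups of libraries did not overlap for 21 of 61 members (34.4%), near the 32.4% of all genes.

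The counts of members and of all genes both moved with the libraries in the fit. Without EWAT 1, 3 members were called against 2.95% of all genes, without EWAT 3 it was 4 against 1.35%, without IWAT 1 it was 4 against 1.55%, and without IWAT 2 it was 2 against 0.284%. Leaving out any of the other libraries gave 9 to 14 members against 6.92% to 14.1% of all genes. Of the 13 calls, 10 ended without EWAT 1 (edgeR adjusted p = 0.0512 to 0.155), 9 without EWAT 3 (edgeR adjusted p = 0.0589 to 0.171), 9 without IWAT 1 (edgeR adjusted p = 0.0504 to 0.142) and 11 without IWAT 2 (edgeR adjusted p = 0.0511 to 0.14). Leaving out IWAT 3 ended 5 of them (edgeR adjusted p = 0.0553 to 0.116), and leaving out any other library ended at most 4. These fits hold fewer libraries, and the folds of the lost calls moved to different extents. Without EWAT 1, the log2 fold change was 1.42 for Sema6a (1.38 in all libraries), 1.33 for Slit3 (1.32) and 1.28 for Epha3 (1.18). It was -1.60 for Sema3a (-1.59) and 2.81 for Sema3e (2.90). It shrank to -1.5 for Epha2 (-2.30), -1.64 for Unc5b (-2.35), 1.99 for Sema3c and 1.07 for Sema5a, and grew to -2.06 for Sema4d. Without IWAT 2, it shrank to 2.32 for Sema3e and 1.80 for Sema3c. Of the calls lost there, only Sema3a (-1.81) and Epha3 (1.35) had a larger fold than in all libraries. Whether calls were lost through fewer libraries or through smaller folds was not tested. Leaving out RWAT 1 and RWAT 3 together, the libraries rich in muscle transcripts, gave 6 members (against 5.58% of all genes), and leaving out EWAT 1 and BAT 2 gave 7 (against 5.51%). On log2(TPM + 0.1), limma called 5 members (against 4.64% of all genes), 4 higher and 1 lower. On that scale the median over all genes moved by 0.22 and 90.5% of all calls were higher in IWAT, against 49.8% in CPM. DESeq2 called 18 members (29.5%, against 20.0% of all genes) and limma-voom 12 (19.7%, against 9.96%). Without adjustment, 28 members had an edgeR p below 0.05 (45.9%, against 30.7%). Directions of the 13 members did not reverse in any of 26 alternative settings. Sema3b and Plxna4os1 kept their call in all 26 and Ntn1 in 25. The highest edgeR adjusted p of Sema3b and of Plxna4os1 was 0.0495, just under the threshold, in a fit with 1 library left out.

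Among the ligands, the smallest p-values belonged to secreted cues that were higher in inguinal fat. Sema3b, a class 3 semaphorin that binds neuropilins (chromosome 9, 107597674 to 107609229 on GRCm38), was at 18.1, 17.2 and 9.65 normalised CPM in IWAT and at 2.57, 3.37 and 1.56 in EWAT. BAT lay at 7.14, 6.54 and 9.91 and RWAT at 8.07, 5.0 and 5.23, with means between those depots and BAT 3 just above IWAT 3. The IWAT libraries were all above the EWAT libraries, by 2.58 ± 0.36 (log2 fold change ± SE, edgeR adjusted p = 0.00867).

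Ntn1, a secreted netrin that attracts through Dcc and repels through Unc5 receptors (chromosome 11, 68209364 to 68400823), was at 48.4, 63.7 and 32.2 CPM in IWAT and 8.09, 8.74 and 4.15 in EWAT. It was at 22.6, 16.1 and 27.8 in BAT and 26.2, 8.64 and 16.9 in RWAT. Every IWAT library exceeded every library of the other depots. The IWAT minus EWAT difference was 2.78 ± 0.44 in log2 (edgeR adjusted p = 0.0108), and 0.0511 without IWAT 2.

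Sema3e, which signals through Plxnd1 without a neuropilin (chromosome 5, 14025276 to 14256689), had the largest fold change of the called members, 2.90 ± 0.56 (edgeR adjusted p = 0.0165). Its IWAT libraries were uneven, at 15.9, 25.1 and 4.36 CPM, against 1.78, 2.00 and 2.31 in EWAT. BAT was at 4.31, 8.05 and 6.75 and RWAT at 5.42, 2.27 and 3.71, so IWAT 3 fell within the range of the other depots and only IWAT 1 and IWAT 2 stood above all of them.

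Sema3c, a secreted semaphorin of vessel and heart development (chromosome 5, 17574281 to 17730268), was at 202, 379 and 124 CPM in IWAT and 23.2, 57.2 and 60.4 in EWAT. These did not overlap, and the difference was 2.32 ± 0.59 (edgeR adjusted p = 0.0348). BAT ranged from 66.2 to 175 and RWAT from 44.8 to 177, which overlapped IWAT 3.

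Slit3, the most abundant Slit (chromosome 11, 35121224 to 35708507), was at 194, 245 and 225 CPM in IWAT and 90.4, 117 and 57.8 in EWAT, a difference of 1.32 ± 0.33 (edgeR adjusted p = 0.0328). BAT 3 reached 197 CPM while BAT 1 and BAT 2 stayed at 82.7 and 97.4, and RWAT ranged from 94.9 to 115. Slit3 therefore overlapped between IWAT and BAT but not between IWAT and the other white depots. Its relative Slit2 pointed the other way, at 1.51, 5.39 and 9.86 CPM in IWAT and 23.3, 18.1 and 16.3 in EWAT, without passing the threshold (-1.78 ± 0.53, edgeR adjusted p = 0.0529). Slit1, best known from the nervous system, was low throughout, at 0.588, 0.58 and 1.35 CPM in IWAT and 1.00, 2.11 and 1.03 in EWAT, which overlapped (-0.71 ± 0.51, edgeR adjusted p = 0.384).

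The transmembrane semaphorins Sema6a and Sema5a completed the ligands higher in IWAT. Sema6a, a ligand of A-type plexins (chromosome 18, 47235598 to 47368870), was at 11.2, 23.9 and 22.8 CPM in IWAT and 7.77, 9.65 and 4.79 in EWAT (1.38 ± 0.35, edgeR adjusted p = 0.0329). Sema5a, whose ectodomain carries thrombospondin repeats (chromosome 15, 32244810 to 32696341), was at 29.5, 46.2 and 49.0 CPM in IWAT and 11.9, 23.5 and 16 in EWAT (1.28 ± 0.33, edgeR adjusted p = 0.0348). IWAT and EWAT libraries did not overlap for either gene.

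The ligands lower in IWAT were Sema3a and Sema4d. Sema3a, the classical collapsing cue that acts through Nrp1 (chromosome 5, 13125414 to 13602565), was at 3.80, 4.53 and 2.36 CPM in IWAT and at 10.7, 11.1 and 10.4 in EWAT. BAT was at 2.53, 7.31 and 3.35 and RWAT at 4.63, 6.49 and 5.09, so EWAT stood above all 9 other libraries, with an SD of only 0.366 CPM around a mean of 10.8. The difference was -1.59 ± 0.38 (edgeR adjusted p = 0.0286). Sema4d, a B-type plexin ligand of lymphoid and myeloid cells (chromosome 13, 51685529 to 51793747), was at 8.46, 9.94 and 19.2 CPM in IWAT and 38.1, 27.5 and 76.8 in EWAT. Its difference of -1.92 ± 0.56 lay close to the threshold (edgeR adjusted p = 0.0491), and BAT 1 with 88.2 CPM was higher than any EWAT library. BAT 1 also had the highest sum of T, NK and B cell markers, and the part of these cells in its Sema4d level was not tested.

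**Figure D2:**
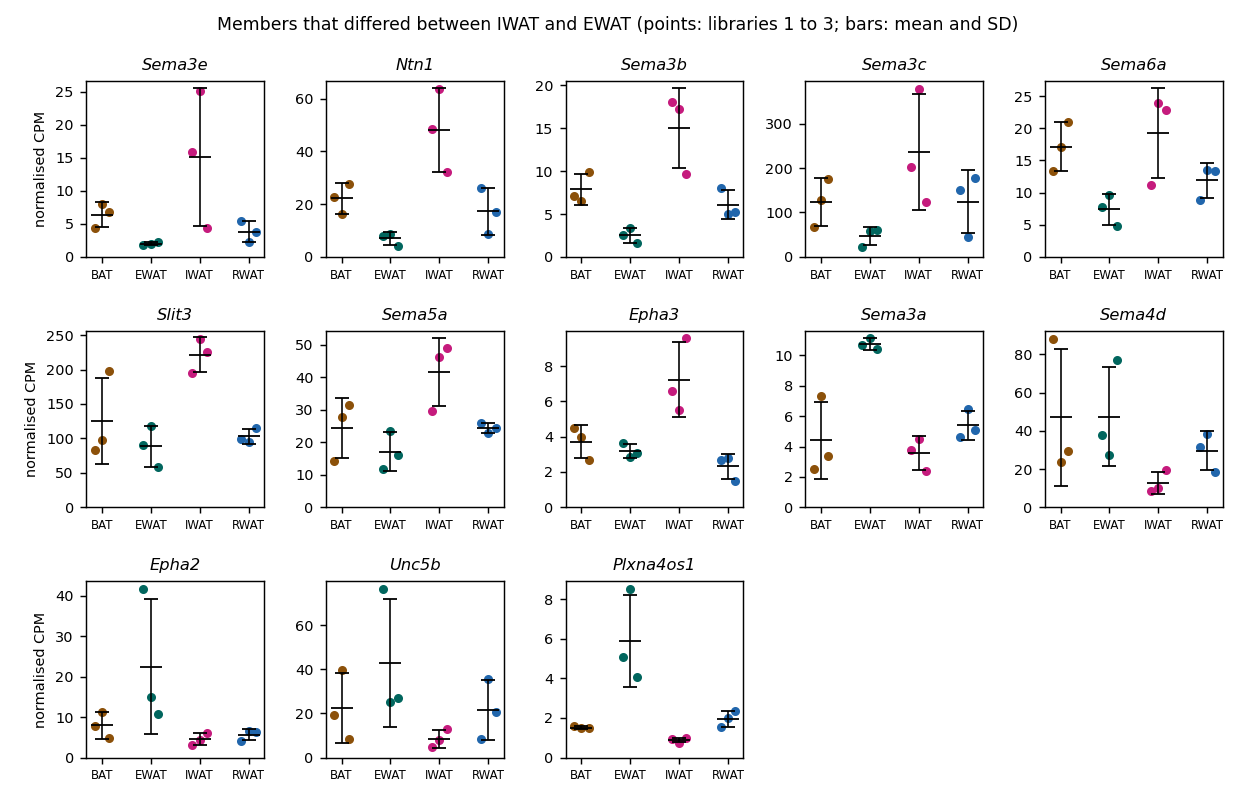
Normalised CPM of the 13 members that differed between IWAT and EWAT, 1 point per library (1 to 3 from left to right), with bars for the depot mean and SD. Ntn1 is higher in every IWAT library than elsewhere, Sema3a and Plxna4os1 are highest in the 3 EWAT libraries, and Sema3e is high in IWAT 1 and IWAT 2 only.

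Sema3d, Sema3a and Sema3e lie close together on chromosome 5, in that order with the gene Speer3 before Sema3e. Sema3d, named here after its values were seen, was at 11.2, 27.5 and 7.24 CPM in IWAT and 2.19, 5.37 and 5.48 in EWAT (1.82 ± 0.54, edgeR adjusted p = 0.0514). Sema3a lies between them and was lower in IWAT. The 250 bases before an annotated start of each gene (RefSeq promoter table, GRCm38.p6, plus strand) are shown for these neighbours, at chr5:12382916-12383165 for Sema3d, chr5:13396534-13396783 for Sema3a and chr5:14025026-14025275 for Sema3e. Windows that overlap an annotated exon were left out. The Sema3a window lies inside the span of its gene (13125414 to 13602565), at an internal start. Those of Sema3d and Sema3e lie before the span of their gene, so the windows are not like for like. Capitals mark matches on either strand to the box CCAAT. They also mark the GC box, which was searched as GGGCGG. The box TATAAA was searched too, with no match in these windows.
Sema3d: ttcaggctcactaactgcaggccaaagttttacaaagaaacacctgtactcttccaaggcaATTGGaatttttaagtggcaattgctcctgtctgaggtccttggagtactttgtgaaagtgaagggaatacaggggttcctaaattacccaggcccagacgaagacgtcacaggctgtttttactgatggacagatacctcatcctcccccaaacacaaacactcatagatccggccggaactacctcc
Sema3a: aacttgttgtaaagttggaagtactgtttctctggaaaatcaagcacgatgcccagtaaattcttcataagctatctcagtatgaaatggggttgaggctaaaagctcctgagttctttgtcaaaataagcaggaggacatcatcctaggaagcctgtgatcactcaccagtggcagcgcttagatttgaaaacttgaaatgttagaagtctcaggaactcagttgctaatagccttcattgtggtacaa
Sema3e: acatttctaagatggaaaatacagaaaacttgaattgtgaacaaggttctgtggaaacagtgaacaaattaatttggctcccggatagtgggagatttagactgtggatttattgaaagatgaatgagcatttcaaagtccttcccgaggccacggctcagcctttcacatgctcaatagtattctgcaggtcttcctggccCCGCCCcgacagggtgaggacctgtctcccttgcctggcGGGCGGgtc
The Sema3d window held 1 CCAAT match, on the minus strand. The Sema3e window held 2 GC box matches, and the Sema3a window held no match. Their GC contents were 46.8%, 48.0% and 40.8% in that order. Of all 32851 promoters of the table, 33.8% held the CCAAT box, 32.7% the GC box and 12.4% the TATAAA box, and of the 76 entries of members, 27.6%, 71.1% and 2.63%. Members had an entry for 60 of 73 symbols. A match is a description of letters, and the counts do not tell which start was used.

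Among the receptors, Epha3 was higher and Epha2 and Unc5b were lower in IWAT. Epha3, an Eph receptor for A-type ephrins (chromosome 16, 63543534 to 63864175), was at 6.60, 5.53 and 9.59 CPM in IWAT and 3.62, 2.85 and 3.08 in EWAT. BAT at 4.47, 4.0 and 2.68 and RWAT at 2.71, 2.77 and 1.52 were also below every IWAT library. The difference from EWAT was 1.18 ± 0.32 (edgeR adjusted p = 0.0417).

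Epha2, an Eph receptor of epithelial and vascular cells (chromosome 4, 141301240 to 141329384), was at 3.19, 4.47 and 6.00 CPM in IWAT and 41.6, 15 and 10.8 in EWAT (-2.30 ± 0.50, edgeR adjusted p = 0.0234). Unc5b, a netrin receptor of endothelial tip cells and macrophages (chromosome 10, 60762593 to 60831581), was at 4.64, 7.85 and 12.9 CPM in IWAT and 76.3, 25.4 and 27.2 in EWAT (-2.35 ± 0.68, edgeR adjusted p = 0.0481). For both genes the groups did not overlap, but EWAT 1 was far above EWAT 2 and EWAT 3, and without EWAT 1 neither passed the threshold. The difference was then -1.5 for Epha2 (edgeR adjusted p = 0.0608) and -1.64 for Unc5b (edgeR adjusted p = 0.155). EWAT 1 is also the library with the lowest Adipoq.

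Plxna4os1, a noncoding antisense RNA inside the span of the plexin gene Plxna4 (chromosome 6, 32511073 to 32515576), had the smallest p-value of the members. It was at 5.09, 8.51 and 4.05 CPM in EWAT, 0.915, 0.758 and 1.00 in IWAT, 1.60, 1.47 and 1.48 in BAT and 1.55, 2.00 and 2.35 in RWAT. EWAT stood above all other libraries, and the IWAT minus EWAT difference was -2.72 ± 0.35 in log2 (edgeR adjusted p = 0.00601). Whether the counting used strand is not given in the sources used here, so reads of Plxna4os1 and Plxna4 cannot be told apart with certainty. The annotated exons of the 2 genes share no bases, and Plxna4 differed by -0.38 ± 0.36 (edgeR adjusted p = 0.52).

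Several receptors of these ligands did not pass the threshold. Nrp1 was at 306, 391 and 362 CPM in IWAT and 242, 218 and 331 in EWAT (0.42 ± 0.24, edgeR adjusted p = 0.257). Nrp2 was at 73.1, 90.5 and 142 in IWAT and 219, 110 and 178 in EWAT (-0.73 ± 0.31, edgeR adjusted p = 0.136), and these overlapped. Plxnd1, the receptor of Sema3e, had the narrowest gap of the high-level plexins, at 170, 130 and 169 CPM in IWAT and 233, 105 and 165 in EWAT (-0.10 ± 0.28, edgeR adjusted p = 0.848). Plxnb2 was at 147, 154 and 261 in IWAT and 394, 252 and 420 in EWAT (-0.93 ± 0.30, edgeR adjusted p = 0.0646). None of the 11 plexins and neuropilins was called by edgeR in this comparison; 5 had an unadjusted p below 0.05, 1 higher and 4 lower. Over all genes the shares were 11.0% and 30.7%, and nothing particular to this family is read from its counts.

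The 13 semaphorins that were not called ranged from -1.88 (Sema7a, a membrane-anchored semaphorin) to 1.82 (Sema3d) in log2. Sema7a was at 118, 14.5 and 24.0 CPM in EWAT and 7.85, 14.5 and 20.2 in IWAT, so EWAT 1 alone was high. Without EWAT 1 its difference was -0.45 ± 0.72 (edgeR adjusted p = 0.759). Sema4a was at 73.5, 51.6 and 40.0 CPM in IWAT and 34.4, 24.5 and 18.8 in EWAT, with no overlap (1.09 ± 0.41, edgeR adjusted p = 0.0982). Sema3g, a secreted semaphorin of arterial endothelium, was at 12, 37.5 and 46.7 in IWAT and 18.2, 14.4 and 7.42 in EWAT (1.27 ± 0.48, edgeR adjusted p = 0.102). The laminin-like netrin Ntn4 was at 25.1, 36.0 and 12.7 in IWAT and 17.9, 8.50 and 6.09 in EWAT, which overlapped (1.18 ± 0.51, edgeR adjusted p = 0.143).

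Of the remaining plexins, Plxnc1, the receptor of Sema7a, was at 23.5, 28.5 and 42.2 CPM in IWAT and 45.5, 45.3 and 64.6 in EWAT, without overlap (-0.72 ± 0.24, edgeR adjusted p = 0.0684). Plxnb1, a receptor of Sema4d, was at 1.70, 3.61 and 3.06 in IWAT and 5.86, 7.54 and 5.52 in EWAT, also without overlap (-1.16 ± 0.47, edgeR adjusted p = 0.121). Among ephrins, Efna5, a membrane-anchored A-type ligand, was at 20.4, 21.5 and 13.4 in IWAT and 5.05, 11.6 and 6.74 in EWAT (1.24 ± 0.47, edgeR adjusted p = 0.104). Efna1, another A-type ephrin, ranged from 2.48 to 6.47 CPM in IWAT and from 4.05 to 8.38 in EWAT, which overlapped (-0.24 ± 0.41, edgeR adjusted p = 0.746). Efna2, at 1.03 to 2.29 CPM in EWAT and 1.20 to 1.77 in IWAT, was at 0.58, 0.318 and 0.682 in RWAT, below every EWAT library (RWAT minus EWAT -1.56 ± 0.48, edgeR adjusted p = 0.614). The 9 Eph receptors that were not called ranged from -1.83 (Epha7) to 1.34 (Ephb6) between IWAT and EWAT. Ephb2, a receptor of B-type ephrins, was at 26.2, 17.1 and 28.9 CPM in IWAT and 12, 20.5 and 14.5 in EWAT, which overlapped (0.62 ± 0.29, edgeR adjusted p = 0.175). Ephb6, a kinase-dead member, was at 11.2, 2.99 and 6.88 in IWAT and 2.57, 2.45 and 3.27 in EWAT (1.34 ± 0.51, edgeR adjusted p = 0.106).

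Robo4 was at 11.8, 32.1 and 34.8 CPM in IWAT and 51, 18.7 and 11.2 in EWAT, a spread within each depot larger than the difference between them (-0.04 ± 0.53, edgeR adjusted p = 0.973). Unc5a, at 23.7, 8.43 and 15.6 in IWAT against 6.24, 8.51 and 7.03 in EWAT, was not called either (1.13 ± 0.36, edgeR adjusted p = 0.0633). The vascular pair Efnb2 and Ephb4 differed by -0.78 ± 0.53 and 0.47 ± 0.30 between IWAT and EWAT (edgeR adjusted p = 0.35 and 0.334). Ephrins gave 0 of 6 calls in edgeR, with 1 at an unadjusted p below 0.05, against the same shares of all genes. Within a depot, the members' libraries spread more than those of other genes: the median SD in log2 CPM was 0.473 for members and 0.321 for all tested genes in IWAT, and 0.470 and 0.353 in EWAT.

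**Figure D3:**
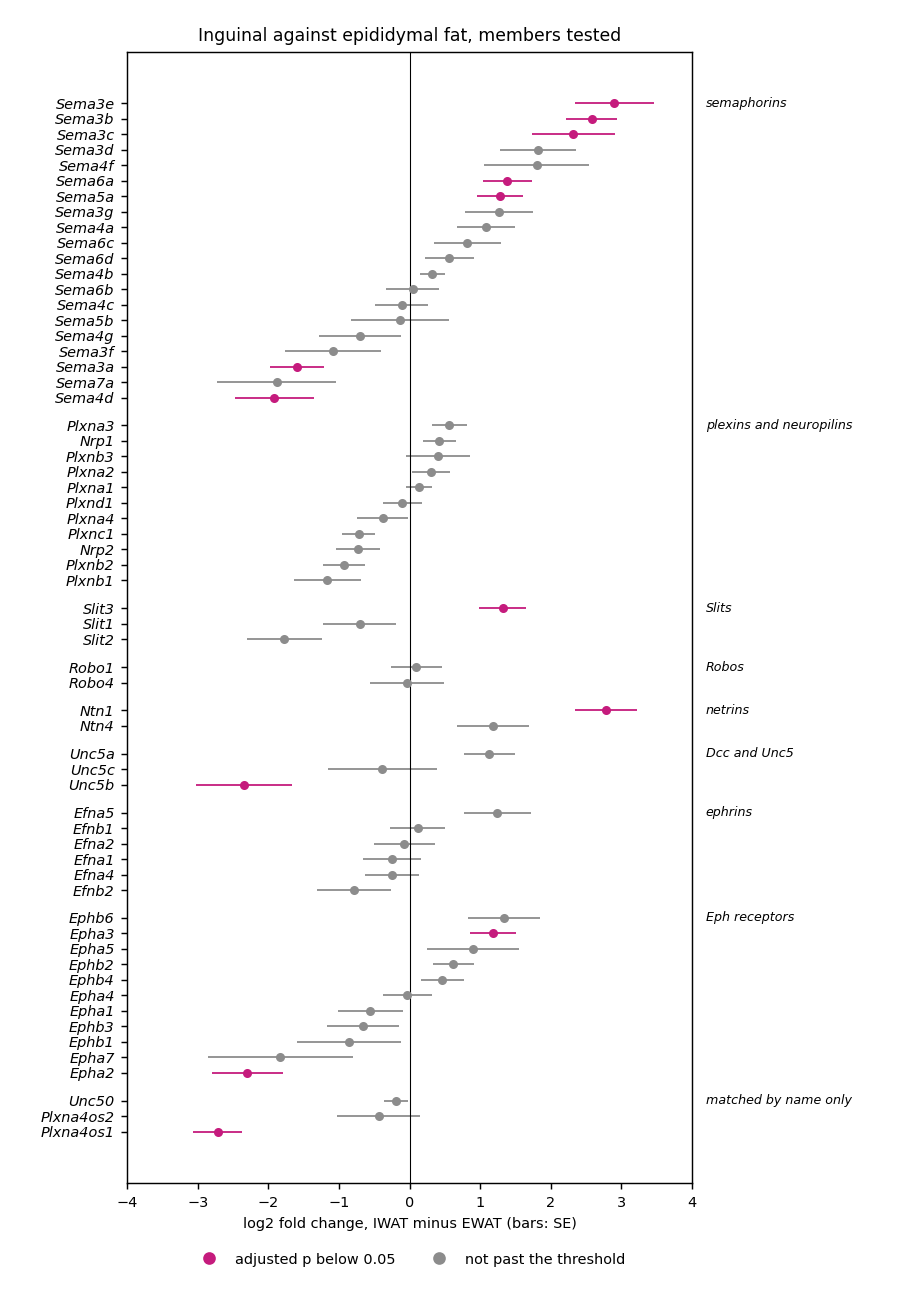
Log2 fold change of IWAT minus EWAT for the 61 tested members, ordered within families, with bars for the SE and coloured points for an edgeR adjusted p below 0.05. Sema3e and Ntn1 lie at 2.90 and 2.78, Plxna4os1 at -2.72, and no plexin or neuropilin is coloured.

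The test of any difference among the 4 depots called 3 of 61 members, 4.92% against 1.14% of all genes: Plxna4os1, Sema3b and Ntn1, with edgeR adjusted p = 0.0156, 0.035 and 0.0431. Between-depot differences held 91.8%, 86.7% and 81.4% of their variance in log2 CPM. These shares are descriptive and no separate support, because the genes were selected by the depot test on the same libraries. An unadjusted p below 0.05 was reached by 20 members (background 20.8%), DESeq2 called 13 (12.8%) and limma-voom 0 (0.148%). The count over all genes moved as well when libraries were left out. Leaving out BAT 2 gave 6 members against 4.17% of all genes. Leaving out EWAT 1 or EWAT 3 gave 1 each, against 0.251% and 0.154%, and leaving out EWAT 2, IWAT 1 or IWAT 2 gave 0, against 0.118%, 0.0920% and 0.0774%.

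The 5 other pairs of depots and BAT against the white mean gave 0 member calls in edgeR. The BAT group includes BAT 2 and BAT 3, with Ucp1 at 0.253 and 1.70 CPM against 1489 in BAT 1. The RWAT group includes RWAT 1 and RWAT 3, with summed muscle markers of 1157 and 6746 CPM. The counts are therefore not read as a lack of difference between these fat types. Percentages of all genes follow each count. BAT against EWAT (0.143% of all genes called) had 9 members at an unadjusted p below 0.05 (9.95%), 4 DESeq2 calls (2.52%) and 0 limma-voom calls (0.0845%). BAT against IWAT (0.0264%) had 10 such members (13.2%), 1 DESeq2 call, Sema4d (1.69%), and 0 limma-voom calls (0%). RWAT against EWAT (0.00528%) had 10 (4.81%), 2 DESeq2 calls (0.686%) and 0 limma-voom calls (0%). RWAT against IWAT (0%) had 15 (20.6%), 5 DESeq2 calls (6.07%) and 0 limma-voom calls (0%). BAT against RWAT (0.0211%) had 0 members at an unadjusted p below 0.05 (4.72%), and 0 DESeq2 (0.238%) and limma-voom calls (0%). BAT against the white mean (0.0528%) also had 0 at each of these levels, where the backgrounds were 4.92% unadjusted, 0.950% by DESeq2 and 0.0211% by limma-voom.

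Values for leading members in these comparisons, which share libraries with IWAT against EWAT, are given side by side. Plxna4os1 differed by -1.95 ± 0.33 in BAT minus EWAT (edgeR adjusted p = 0.0544) and -1.59 ± 0.33 in RWAT minus EWAT (edgeR adjusted p = 0.234). Sema3b differed by 1.65 ± 0.36 in BAT minus EWAT (edgeR adjusted p = 0.114) and -1.29 ± 0.34 in RWAT minus IWAT (edgeR adjusted p = 0.126). Epha3 differed by -1.62 ± 0.33 in RWAT minus IWAT (edgeR adjusted p = 0.103).

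Of other guidance ligands and receptors, 10 of 49 tested were called in IWAT against EWAT (20.4%; 7 higher, 3 lower), and of intracellular effectors 11 of 69 (15.9%; 4 higher, 7 lower). The share over all genes was 11.0%, and the median log2 fold changes of these lists were -0.05 and -0.13. The genes below are the 4 of each list with the smallest p in the test of any depot difference, and Neo1, which was added after its values were seen. They were picked by these same data and do not represent the lists, in which most genes were not called. Rgma, a repulsive ligand of neogenin, averaged 21.1 CPM in IWAT and 6.60 in EWAT (1.68 ± 0.27, edgeR adjusted p = 0.0108). Its receptor Neo1, a Dcc relative that also binds netrins, averaged 47.1 and 29.1 (0.70 ± 0.18, edgeR adjusted p = 0.0361). Rgmb, a relative of Rgma, averaged 22.4 and 11.6 (0.95 ± 0.19, edgeR adjusted p = 0.0187). Cdon, a co-receptor of hedgehog and netrin signalling, averaged 104 and 27.5 (1.91 ± 0.33, edgeR adjusted p = 0.0127). Cxcr4, the chemokine receptor, was lower, at 11.0 and 65.4 (-2.57 ± 0.39, edgeR adjusted p = 0.0098). Ablim1, an actin-binding effector related to a netrin-pathway protein, averaged 210 and 56.5 (1.90 ± 0.38, edgeR adjusted p = 0.0186). Arhgef12, a RhoA activator that binds B-type plexins, was also higher, at 324 and 162 (1.00 ± 0.23, edgeR adjusted p = 0.0262). Lower in IWAT were Vasp, which promotes actin filament growth, at 47.0 and 104 (-1.15 ± 0.27, edgeR adjusted p = 0.0273), and Elmo1, a Rac activator with Dock proteins, at 28.9 and 52.7 (-0.86 ± 0.21, edgeR adjusted p = 0.0290).

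Cell marker lists were counted beside these genes, and their part in the member differences was not tested. Of all genes, 11.0% were called in IWAT against EWAT. The share was 52.9% for mesothelial, 56.25% for macrophage, 50% for fibroblast and progenitor and 38.5% for Schwann cell markers. It was near or below that of all genes for blood endothelial (11.1%) and adipocyte markers (6.67%). In IWAT against EWAT, 9 of 17 mesothelial markers were called, all lower, with summed levels of 84.9 to 101 CPM in IWAT and 171 to 304 in EWAT. Macrophage markers had 9 of 16 called, 1 higher and 8 lower, with sums of 4005 to 5755 and 12526 to 15723. Fibroblast and progenitor markers had 8 of 16 higher, with overlapping sums of 9471 to 15425 and 7805 to 13952. Adipocyte markers had 1 of 15 higher, with sums of 22163 to 37306 and 1900 to 13632, which did not overlap. Without adjustment, 11 of these 15 had an edgeR p below 0.05 (against 30.7% of all genes). Their median log2 fold change was 2.21, so the low share of adipocyte calls is not read as a lack of difference. Blood endothelial markers had 2 of 18 higher, with sums of 9722 to 13368 and 3568 to 8050, most of it from Cd36 and Fabp4, which adipocytes also express. The other 16 endothelial markers summed to 524, 1019 and 1303 CPM in IWAT and 1072, 517 and 423 in EWAT, which overlapped. Pecam1, defining for endothelium, was at 58.6, 141 and 181 in IWAT and 227, 70.2 and 78.3 in EWAT, highest in EWAT 1. Schwann cell markers had 4 higher and 1 lower of 13, with sums of 230 to 296 and 198 to 255. Lymphatic endothelial markers had 2 higher and 1 lower of 8 (37.5%), and mural markers 2 higher and 3 lower of 11 (45.5%). Brown adipocyte markers had 3 of 12 higher (25%) and sympathetic neuron markers 1 of 12 (8.33%). T, NK and B cell markers had 1 of 14 lower (7.14%), and skeletal muscle markers had 0 of 18 called. The mesothelial gene Msln, defining for that layer, was at 5.33, 2.23 and 10.7 CPM in EWAT and 1.63, 0.446 and 0.235 in IWAT.

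**Figure D4:**
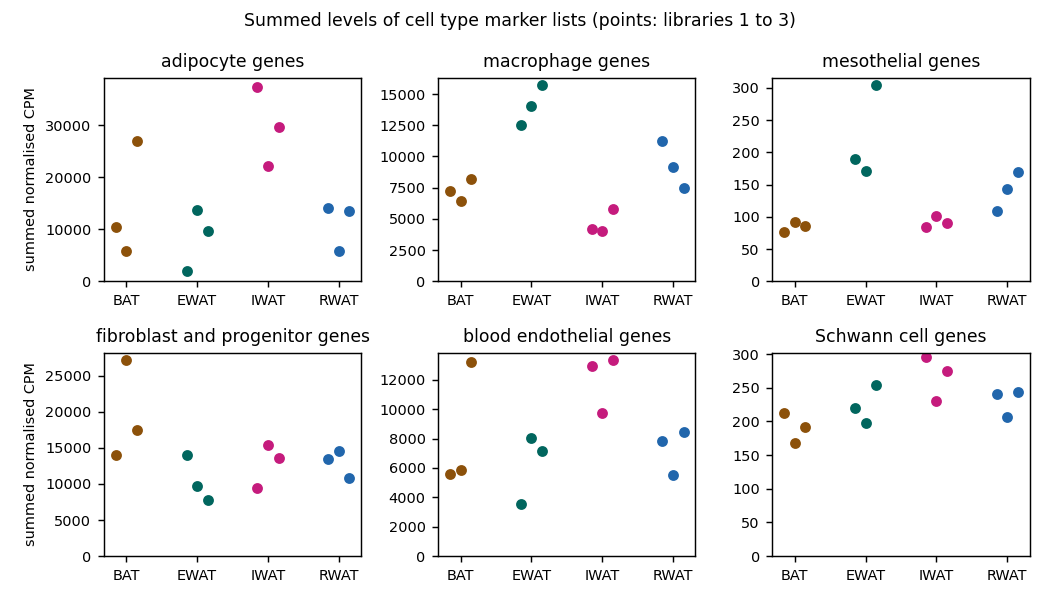
Summed normalised CPM of 6 cell type marker lists by library, 1 point each. Macrophage and mesothelial sums are higher in all EWAT than in all IWAT libraries, and adipocyte sums are higher in all IWAT than in all EWAT libraries, with 1 of 15 adipocyte markers called. The blood endothelial sum is mostly Cd36 and Fabp4, and the other 16 endothelial markers overlap between these depots.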

How the data were processed

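Per the labels' protocols, ribosomal RNA was removed from total RNA and reads were single-end, 75 bp long. The tools named by the submitters' processing notes were Trimmomatic 0.36, RSEM 1.3.0 and DESeq2 1.10.1 on GRCm38.p4. Aligner, annotation release and strand use are not given in the sources used here. Tables as deposited hold, per the file headers, RSEM expected counts per gene (estimated read counts, with no scaling between libraries), TPM (scaled by effective length) and effective length in bases. TPM served to compare levels between genes and for alternatives.

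Expected counts were rounded. The edgeR 4.0.16 filter filterByExpr, at a minimum count of 10, left 18942 of 47729, and scaled by TMM factors of 0.846 to 1.14. A single model with a coefficient per depot was fitted over 12 libraries with the quasi-likelihood test of edgeR (two-sided, R 4.3.3), and p-values were Benjamini-Hochberg adjusted over the genes tested (threshold 0.05; biological coefficient of variation 0.385). Normalised CPM divides the expected count by the TMM-scaled library size. The code was checked on simulated counts with the same dispersion for every gene and changes in IWAT alone. That simulation held no outlying libraries, so it does not measure error rates in these data. Alternatives used DESeq2 1.42.0, limma 3.58.1, other scalings, filters, left-out libraries and a replicate block. Positions are from the GENCODE annotation of GRCm38. No pair of libraries within a depot differed by as little as sampling noise; pairs across depots were not compared. Members, gene lists and alternatives were chosen with earlier results of these data known, and 3 alternatives were added after the data were seen. Described genes were the called members, the 3 highest and the 3 with the smallest p in each family, and a set list of vascular and neural cues. In each list of other guidance genes and effectors, the 4 with the smallest p of the test of any depot difference were described. Of the genes named outside these rules, Sema3d, Sema7a, Epha7, Plxna4 and Neo1 were chosen after their values were seen. Of 319 list symbols, 318 matched.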

Additional observations from a re-analysis of the deposited data

How the results depend on the processing

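Counts of called members and of all genes depended on the libraries and the test. For any depot difference (3 called), DESeq2 gave 13, limma-voom 0, limma on log2(TPM + 0.1) and log2(TPM + 1) 0 and 0, the effective-length offset 1, and, added after seeing the data, the legacy edgeR fit 1 and leaving out EWAT 1 and BAT 2 1. Leaving out each library gave 0 to 6 (15 to 817 of all genes, against 215). For IWAT against EWAT (13 called, 11.0%), limma on log2(TPM + 0.1) gave 5 (4.64%) and on log2(TPM + 1) 4 (4.50%). Leaving out EWAT 1 and BAT 2 gave 7 (5.51%), and leaving out RWAT 1 and RWAT 3 gave 6 (5.58%). Leaving out each library gave 2 to 14 (55 to 2769 of all genes, against 2082). For BAT against EWAT (0 called, 0.143%), RLE size factors gave 1, no filter on low counts 1 and DESeq2 4 (2.52%). There, leaving out each library gave 0 to 2 (3 to 247 of all genes). DESeq2 gave 1 for BAT against IWAT (1.69%), 2 for RWAT against EWAT (0.686%) and 5 for RWAT against IWAT (6.07%). BAT against RWAT and against the white mean stayed at 0 in every setting run. The cause of these changes was not tested. The fits that leave libraries out also hold fewer libraries. Of the 13 genes, none reversed direction in 26 settings; Sema3e kept its call in 21, Epha2 in 20, Sema3c in 19, Sema6a, Sema3a and Slit3 in 17, Sema5a in 16, Sema4d and Epha3 in 10 and Unc5b in 9.

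With the replicate number as a block, 7 members were called for IWAT against EWAT (against 5.62% of all genes). For any depot difference, 0 were called (against 0.143%). Same-numbered libraries deviated together (correlation over 0.1 in all 3 pairs) in 1 of 6 depot pairs, with correlations from -0.42 to 0.48, so the numbers were not taken as a pairing. Members under the count filter could not be compared at this depth.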
